A study of Mus musculus with 18 samples.

Results

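The 40 genes described here encode proteins that carry a cell into and through mitosis: the cyclins and kinases of mitotic entry, the spindle assembly checkpoint, centromere and kinetochore proteins, the chromosomal passenger complex, spindle proteins, and the machinery of the central spindle and cytokinesis. They were taken by name from a list, and all 40 were found among the 55401 genes counted. Their RNA was measured by polyA RNA-seq in 18 libraries of mouse primary cholangiocytes, the epithelial cells of the bile ducts, which were captured from minced biliary trees with an antibody to the surface protein EpCAM. There are 3 libraries in each of 6 groups. The first pair holds cells of mice with polycystic liver disease (PLD) treated with CPTH6 and with ML324, whose titles give 3 months. The other 4 groups are untreated PLD and WT mice at 2 months, and PLD and WT mice at 1 month, after tamoxifen, which the labels give for mice of both genotypes. CPTH6 is known to inhibit histone acetyltransferases, and ML324 is known to inhibit histone demethylases of the KDM4 family. The sources used here do not name the gene inactivated in PLD mice, the Cre driver, the strain, the dose or the length of treatment, and they give no untreated PLD group at 3 months. They also do not say whether replicates were separate animals, so p-values measure only the spread between these libraries, which may be technical.

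In a dividing cell, Foxm1 and related transcription factors switch on a block of genes late in the cell cycle, and the kinase Cdk1 bound to cyclin B then starts mitosis. The checkpoint holds the anaphase-promoting complex in check until every chromosome is attached to the spindle, after which Cdc20 activates the complex and securin and cyclin B are destroyed. Bile duct epithelium divides rarely in the adult liver, and cyst growth in polycystic liver disease is known to involve division of these cells.

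The make-up of the preparations differed between groups, and their part in the results below was not tested. Total counts per library ran from 16345740 to 29277311, and WT replicate 1 at 2 months stood apart with 40039 genes detected, against 22780 to 30332 in the other libraries. The mean log2 CPM of 15 cholangiocyte markers was 9.62 ± 0.16 after CPTH6, 9.52 ± 0.10 after ML324, 9.25 ± 0.05 in PLD at 2 months, 7.02 ± 0.41 in WT at 2 months, 8.82 ± 0.28 in PLD at 1 month and 7.56 ± 0.69 in WT at 1 month (SD, n = 3 each). WT replicate 3 at 1 month stood apart within its group, at 8.36 for these markers and highest for the mitosis genes. The summed level of these markers was 22227 to 23170 CPM in PLD and 3962 to 8121 CPM in WT at 2 months, and 13759 to 19178 CPM in PLD and 6154 to 14678 CPM in WT at 1 month. Summed endothelial markers were at 289 to 455 CPM after CPTH6, 213 to 948 CPM after ML324, 1097 to 2108 CPM in PLD and 11010 to 19508 CPM in WT at 2 months, and 3484 to 6826 CPM in PLD and 3376 to 8231 CPM in WT at 1 month. Summed fibroblast and stellate markers were at 394 to 482 CPM after CPTH6, 305 to 1073 CPM after ML324, 3545 to 7776 CPM in PLD and 7391 to 14319 CPM in WT at 2 months, and 10805 to 13962 CPM in PLD and 3005 to 18848 CPM in WT at 1 month. No marker of these 3 lists was at 0 in a library (0 in each group). At 2 months, 11 of 15 cholangiocyte markers were called higher in PLD, and 15 of 15 endothelial and 7 of 14 fibroblast and stellate markers were called lower, with 1 of the 14 higher. In that month 1 macrophage marker was called higher and 3 lower of 15, and 4 hepatocyte markers higher and 5 lower of 12. Summed hepatocyte markers were at 4317 ± 1624 CPM in PLD and 747 ± 155 CPM in WT (SD, n = 3). Their mean log2 CPM had the opposite order, at 2.19 ± 0.47 in PLD and 2.79 ± 0.50 in WT (SD, n = 3). At 1 month, 5 of 15 cholangiocyte markers were called higher, 0 of 15 endothelial and 0 of 14 fibroblast markers were called, and 2 of 15 macrophage markers were called lower. Over all genes tested, 19.7% were called higher and 20.3% lower in PLD at 2 months. The shares were only 3% and 2.02% at 1 month, so a count of 0 says little there.

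**Figure D1:**
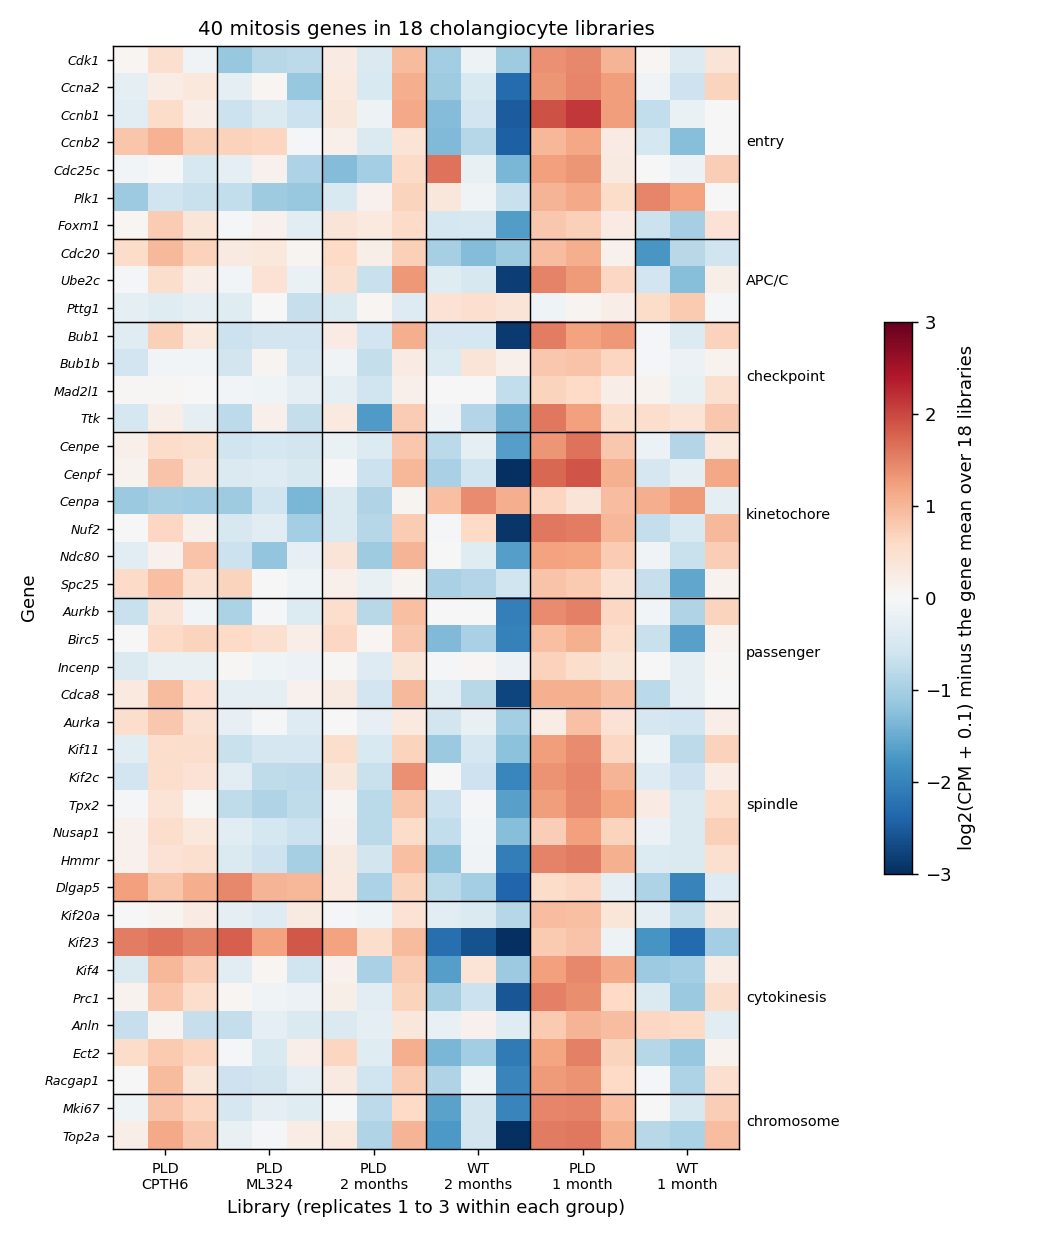
Each row is 1 of the 40 mitosis genes, grouped by role, and each column is 1 of 18 libraries. Colour gives log2(CPM + 0.1) minus the mean of that gene over the 18 libraries. The PLD columns at 1 month are the reddest for most rows, WT replicate 3 at 2 months is the lowest of the 18 for 29 rows, and Kif23, Dlgap5, Cenpa and Pttg1 have patterns of their own.

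Levels of the 40 genes were highest in PLD at 1 month and lowest in WT at 2 months. The mean log2 CPM (CPM are counts scaled to a common library size, here on a log2 scale) over the 40 genes was 2.16 ± 0.26 after CPTH6, 1.64 ± 0.09 after ML324, 2.02 ± 0.61 in PLD at 2 months, 1.01 ± 0.69 in WT at 2 months, 2.90 ± 0.28 in PLD at 1 month and 1.72 ± 0.45 in WT at 1 month (SD, n = 3 libraries each). PLD at 1 month had the highest group mean for 33 of the 40 genes, and WT at 2 months had the lowest for 28. Most genes also moved together between replicates of 1 group. Replicate 3 was the highest of the WT libraries at 1 month for 36 of the 40 genes and the highest of the PLD libraries at 2 months for 37, while replicate 3 was the lowest of the WT libraries at 2 months for 35 and the lowest of the PLD libraries at 1 month for 35. In these bulk samples, fewer dividing cells and less RNA per dividing cell cannot be told apart.

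These are mostly low to moderate transcripts. Counts of the 40 genes ran up to 2918 in CPTH6 replicate 2, and the smallest was 1 in WT replicate 3 at 2 months. Per kilobase of gene length, the median level over the 40 genes was 0.814 CPM per kilobase after CPTH6, 0.629 after ML324, 0.939 in PLD at 2 months, 0.439 in WT at 2 months, 1.56 in PLD at 1 month and 0.681 in WT at 1 month. The most abundant on that scale were Kif23, with 13.7 CPM per kilobase after CPTH6 and 14.7 after ML324, and Pttg1, with 12.9 in WT at 2 months and 13.2 in WT at 1 month. Cdc25c, the phosphatase that activates Cdk1, was the least abundant in 5 of the 6 groups and reached only 0.196 CPM per kilobase in PLD at 1 month.

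**Figure D2:**
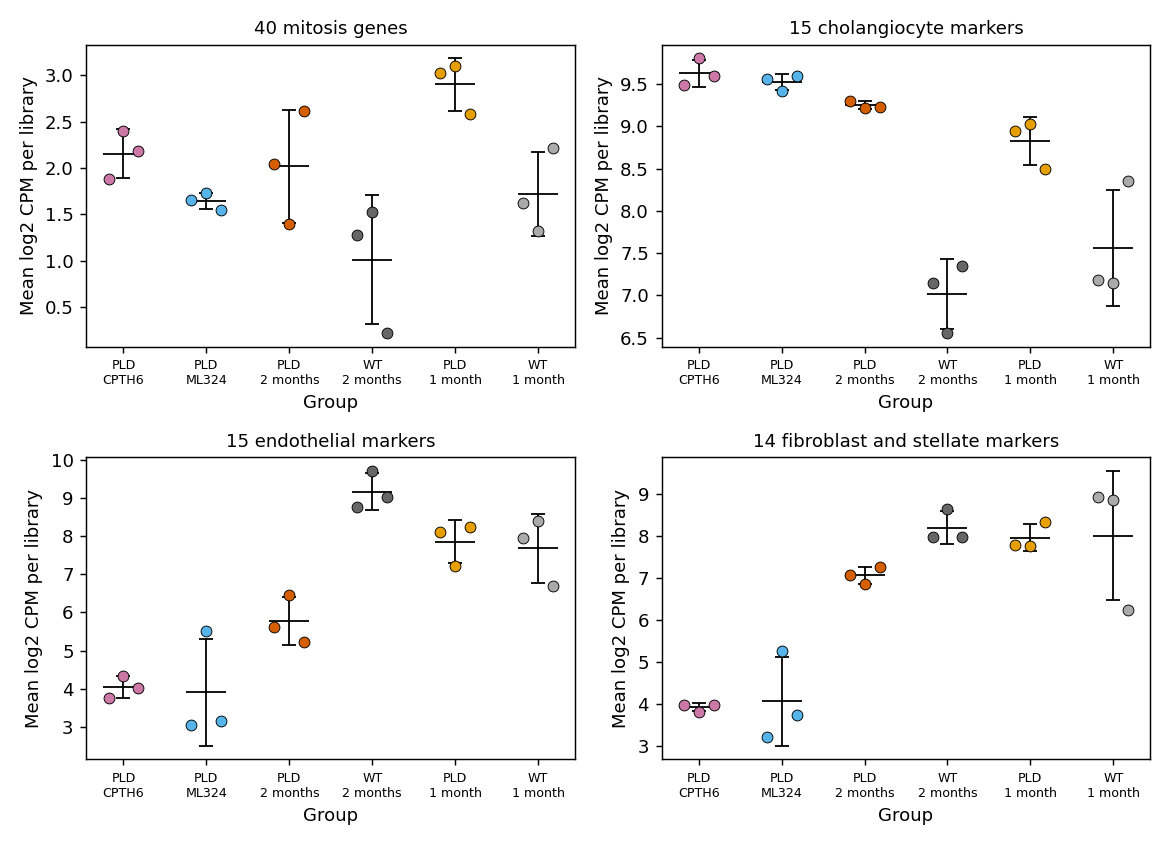
Each panel gives the mean log2 CPM per library of 1 gene list, with 3 points per group and the mean with its SD. The upper panels show the 40 mitosis genes, which stood at 2.90 in PLD and 1.72 in WT at 1 month, and the cholangiocyte markers. The lower panels show the endothelial markers and the fibroblast and stellate markers, which were lowest in the treated groups.

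The promoters of these genes shared sequence features. Among the 40 genes, 32 had an entry in the RefSeq promoter table (GRCm38.p6, from 250 bases before to 50 after the start), with 34 windows. The core of the element called the cell cycle genes homology region, searched as the letters TTTGAA and also in the variant TTCGAA, stood on either strand in 27 of the 34 windows (79.4%), against 19.2% of all 32851 windows in the table. The NF-Y box CCAAT, on either strand, stood in 26 (76.5%), against 37.4% of all windows. Both were present in 24 (70.6%), against 7.52%. The E2F motif, searched on both strands as TTGGCGC and also in the form TTCCCGC, stood in 5 (14.7%), against 6.81%, and its first form can share bases with CCAAT read on the other strand. Over 60 windows of 52 other mitosis genes the shares were 58.3% for the homology motif, 70% for CCAAT and 43.3% for both. Over 31 windows of 28 of the 34 DNA replication genes, which act earlier in the cycle, the shares were 19.4% for the homology motif, 64.5% for CCAAT and 54.8% for E2F. A match describes the letters only. The start regions of 6 genes on which the results below turn are printed from 120 bases before the start to 25 bases from it, 5′ to 3′ on the gene's strand, with the homology motif and the CCAAT box, on either strand, in capitals. The homology motif falls near the start in Cdc20, Kif11, Kif23 and Cenpa, is present at 2 places in Cdk1 and is missing from the window of Ccnb1. Of the 2 genes called lower in PLD at 2 months, the window of Cenpa holds both motifs and that of Pttg1 holds neither them nor the E2F motif. The Pttg1 window, 43425932 to 43426231 on the minus strand, lies inside the counted gene, which spans 43420250 to 43426251. Bases before the outermost start of Pttg1 were therefore not searched.
Ccnb1, minus strand, chr13:100786462-100786606: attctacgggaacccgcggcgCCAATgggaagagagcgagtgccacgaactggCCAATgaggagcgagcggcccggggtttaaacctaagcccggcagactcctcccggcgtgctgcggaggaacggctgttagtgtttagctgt
Cdk1, minus strand, chr10:69352888-69353032: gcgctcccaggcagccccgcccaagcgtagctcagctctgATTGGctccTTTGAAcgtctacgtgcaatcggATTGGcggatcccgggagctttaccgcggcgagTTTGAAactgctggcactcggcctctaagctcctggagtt
Cdc20, minus strand, chr4:118437319-118437463: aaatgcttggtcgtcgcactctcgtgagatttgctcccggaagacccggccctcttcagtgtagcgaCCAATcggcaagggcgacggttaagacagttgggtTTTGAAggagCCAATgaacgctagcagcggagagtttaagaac
Kif11, plus strand, chr19:37376262-37376406: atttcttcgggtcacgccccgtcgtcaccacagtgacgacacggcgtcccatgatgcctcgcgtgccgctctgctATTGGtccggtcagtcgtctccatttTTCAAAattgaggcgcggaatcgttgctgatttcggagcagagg
Kif23, minus strand, chr9:61946775-61946919: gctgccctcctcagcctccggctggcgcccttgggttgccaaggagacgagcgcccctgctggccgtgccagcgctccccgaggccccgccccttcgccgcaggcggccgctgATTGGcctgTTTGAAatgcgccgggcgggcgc
Cenpa, plus strand, chr5:30666766-30666910: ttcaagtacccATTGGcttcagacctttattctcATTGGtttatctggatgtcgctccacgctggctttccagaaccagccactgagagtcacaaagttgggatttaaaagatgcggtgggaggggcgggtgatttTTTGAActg

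At 1 month the mitosis genes stood higher in PLD than in WT, but few passed the test. In a fit across 17749 genes (edgeR quasi-likelihood test, Benjamini-Hochberg adjusted p under 0.05), 3 of the 40 genes were called higher, against 3% of all genes tested, and 0 were called lower, against 2.02%. DESeq2 called 14 higher, against 6.8% of all genes, and 0 lower, against 7.16%. The fold change was above 0 for 37 of the 40 genes, with a median log2 fold change of 1.25, against -0.05 over all genes tested, and 27 of the 40 had an unadjusted p under 0.05, against 24.2% of all genes. All 3 PLD libraries lay above all 3 WT libraries for 29 of the 40 genes, against 15.1% of all genes tested. The 3 genes called at 1 month were among the 12 called higher at 2 months.

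At 2 months, 12 of the 40 genes were called higher in PLD, against 19.7% of all genes tested, and 2 were called lower, against 20.3%. The median log2 fold change was 1.09, against -0.03 over all genes, and 36 of the 40 were above 0. By edgeR, 23 of the 40 had an unadjusted p under 0.05, against 49.7% of all genes. DESeq2 kept these 14 calls and added 6, against 22.3% of all genes called higher and 23.3% lower. The libraries did not overlap for 12 genes higher in PLD against 26.1% of all genes, and for 2 lower genes, against 29.3%. Over all 8 comparisons, edgeR called 24 of the 40 genes in none. The share of all genes called in none was not determined, so this count has no background to be read against.

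**Figure D3:**
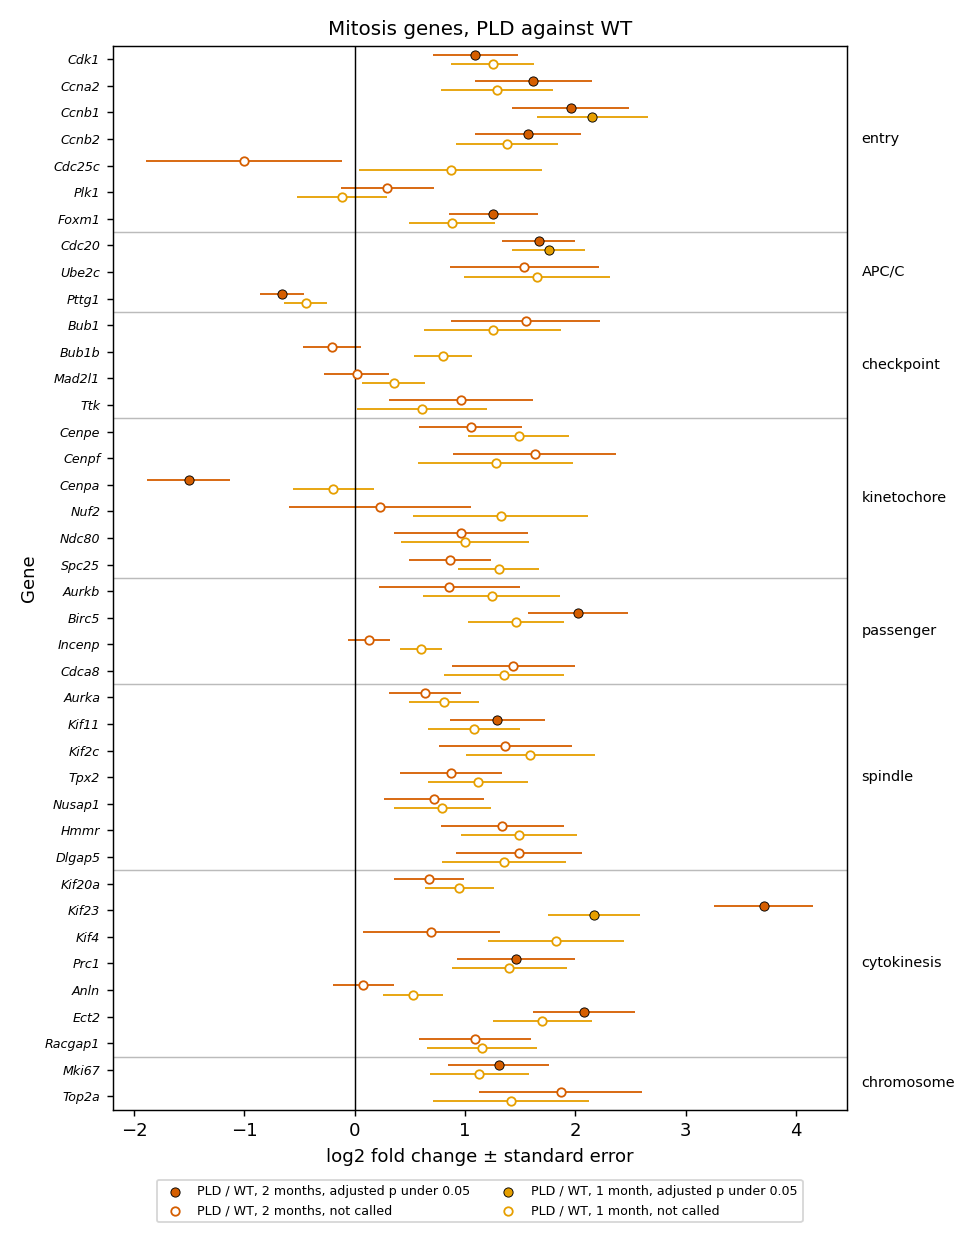
Log2 fold changes of PLD over WT with standard errors for the 40 mitosis genes, by role, at 2 months and at 1 month. Filled points passed an adjusted p of 0.05 by edgeR. Kif23 at 2 months is the farthest to the right, at 3.71, and Cenpa at 2 months the farthest to the left, at -1.51.

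Of the 7 regulators of mitotic entry, 5 were called higher in PLD than in WT at 2 months (71.4%, against 19.7% of all genes). At 1 month 1 was called higher (14.3%, against 3%). Of the 5 calls at 2 months, 0 remained when PLD replicate 3 was omitted, 1 when PLD replicate 1 was, 2 for WT replicate 1 and 1 for WT replicate 3. Ccnb1, cyclin B1 (ENSMUSG00000041431.16, mm10 chromosome 13 from 100778650 to 100786570), partners Cdk1. It had 6.40, 7.39 and 4.03 CPM in PLD and 0.937, 1.40 and 1.61 CPM in WT at 1 month. At 2 months it had 2.09, 1.45 and 3.72 CPM in PLD and 0.600, 1.07 and 0.206 CPM in WT. The PLD libraries lay above the WT libraries in both months, without overlap. The log2 fold changes were 2.15 ± 0.50 at 1 month (edgeR adjusted p = 0.0382) and 1.96 ± 0.53 at 2 months (edgeR adjusted p = 0.0141).

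Cdk1, the kinase that drives entry into mitosis (ENSMUSG00000019942.13, chromosome 10 from 69335146 to 69352938), had 11.9, 12.5 and 9.33 CPM in PLD and 4.73, 3.38 and 5.96 CPM in WT at 1 month. It had 5.41, 3.33 and 8.82 CPM in PLD and 2.14, 4.09 and 2.11 CPM in WT at 2 months. The groups were apart at 1 month and overlapped at 2 months, where PLD replicate 2 lay below WT replicate 2. The log2 fold changes were 1.25 ± 0.38 at 1 month (edgeR adjusted p = 0.0781, not called) and 1.09 ± 0.39 at 2 months (edgeR adjusted p = 0.043). Foxm1, the transcription factor for late cell cycle genes, had 10.6, 9.87 and 7.15 CPM in PLD and 3.79, 2.94 and 8.10 CPM in WT at 1 month. It had 7.85, 7.35 and 8.97 CPM in PLD and 4.11, 4.31 and 1.81 CPM in WT at 2 months. Only WT replicate 3 at 1 month reached into the PLD range. Its log2 fold changes were 0.88 ± 0.39 at 1 month (edgeR adjusted p = 0.199) and 1.26 ± 0.40 at 2 months (edgeR adjusted p = 0.0287). Cyclin A2 (Ccna2, 1.62 ± 0.53) and cyclin B2 (Ccnb2, 1.57 ± 0.48) were also called higher in PLD than in WT at 2 months. Cdc25c and the kinase Plk1 were not called in either month.

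Cdc20 and securin, the activator and a target of the anaphase-promoting complex, went opposite ways in PLD against WT at 2 months. Cyclin B1, another target, was higher in PLD, as Cdc20 was. Cdc20, the activator (ENSMUSG00000006398.15, chromosome 4 from 118432901 to 118437352), had 13.7, 15.5 and 7.92 CPM in PLD and 2.09, 4.01 and 4.74 CPM in WT at 1 month. It had 10.9, 8.10 and 11.9 CPM in PLD and 3.56, 2.89 and 3.40 CPM in WT at 2 months. No WT library reached the lowest PLD library in either month. Cdc20 was higher in PLD on the log2 scale by 1.76 ± 0.33 (edgeR adjusted p = 0.0179) at 1 month and 1.67 ± 0.33 (edgeR adjusted p = 0.00279) at 2 months. Exon bases shared with the neighbouring gene Elovl1, on the opposite strand, make up 2.84% of Cdc20 exons, and counting was without strand. Pttg1, chosen here after its values were seen, encodes securin, which keeps sister chromatids joined until anaphase. It had 14.1, 19.6 and 14.5 CPM in PLD and 25.7, 26.8 and 24.8 CPM in WT at 2 months, a log2 fold change of -0.66 ± 0.20 (edgeR adjusted p = 0.022). That call ended without PLD replicate 1, PLD replicate 3 or WT replicate 2. At 1 month the log2 fold change of Pttg1 was -0.45 and was not called. Pttg1 and Cenpa were the only 2 of the 40 genes called lower in PLD at 2 months. Ube2c, the ubiquitin-conjugating enzyme of the complex, was not called (1.65 ± 0.66 at 1 month and 1.54 ± 0.67 at 2 months).

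In the spindle assembly checkpoint, 0 of 4 genes were called in either month by edgeR, against 3% of all genes higher at 1 month and 19.7% at 2 months. Bub1, Bub1b, Mad2l1 and Ttk, kinases and sensors of unattached kinetochores, ranged from 0.35 to 1.25 at 1 month and from -0.21 to 1.55 at 2 months in log2 fold change. In each month 1 had an unadjusted p under 0.05, against 24.2% of all genes at 1 month and 49.7% at 2 months. Among the 6 centromere and kinetochore genes, 0 were called higher in PLD at 2 months, against 19.7% of all genes, and 1 lower (16.7%, against 20.3%). Cenpa encodes the histone H3 variant that marks the centromere (ENSMUSG00000029177.9, chromosome 5 from 30666777 to 30674830). It had 6.40, 4.61 and 9.16 CPM in PLD and 16.3, 23.4 and 18.5 CPM in WT at 2 months. At 1 month it had 13.6, 11.4 and 16.5 CPM in PLD and 18.5, 21.2 and 7.18 CPM in WT. The groups were apart at 2 months with PLD lower, and at 1 month WT replicate 3 was the lowest of the 6 libraries. The log2 fold changes were -1.51 ± 0.38 at 2 months (edgeR adjusted p = 0.0097) and -0.20 ± 0.37 at 1 month (edgeR adjusted p = 0.783). The other 5 (Cenpe, a motor that brings chromosomes to the spindle equator, Cenpf, and Nuf2, Ndc80 and Spc25 of the microtubule-binding Ndc80 complex) ran from 0.23 to 1.63 at 2 months and were not called.

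Of the 4 genes of the chromosomal passenger complex, which corrects faulty attachments, 1 was called higher in PLD at 2 months (25%, against 19.7% of all genes). Birc5, survivin, had 4.42, 2.95 and 5.05 CPM in PLD and 1.07, 1.38 and 0.619 CPM in WT at 2 months. The PLD libraries were all above the WT libraries, and the log2 fold change was 2.03 ± 0.45 (edgeR adjusted p = 0.0054). Aurora kinase B (Aurkb), its activator Incenp and borealin (Cdca8) were not called in either month. Of the 7 spindle assembly genes, 1 was called higher in PLD at 2 months (14.3%, against 19.7% of all genes). Kif11, the kinesin that pushes spindle poles apart, had 6.57, 3.27 and 7.15 CPM in PLD and 2.01, 3.15 and 1.86 CPM in WT at 2 months. The lowest PLD library was just above the highest WT library, and the log2 fold change was 1.29 ± 0.43 (edgeR adjusted p = 0.0341). All 7 had a fold change above 0 in both months, from 0.79 to 1.59 at 1 month and from 0.64 to 1.49 at 2 months.

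The central spindle and cytokinesis group held the largest change. Kif23 encodes the kinesin subunit of centralspindlin, which bundles microtubules where the cleavage furrow forms (ENSMUSG00000032254.10, chromosome 9 from 61915905 to 61946774). It had 64.2, 67.3 and 33.4 CPM in PLD and 10.9, 7.28 and 18.1 CPM in WT at 1 month. At 2 months it had 85.8, 53.1 and 72.0 CPM in PLD and 7.58, 5.95 and 2.78 CPM in WT. The groups were far apart in both months. Kif23 was higher in PLD by 2.17 ± 0.42 (edgeR adjusted p = 0.0205) and 3.71 ± 0.45 (edgeR adjusted p = 0.000221) on the log2 scale at 1 and 2 months. Racgap1, the partner of Kif23 in centralspindlin and also chosen after its values were seen, had 8.38, 4.56 and 11.8 CPM in PLD and 3.68, 6.35 and 1.70 CPM in WT at 2 months. Those ranges overlapped, and its change of 1.09 ± 0.51 was not called (edgeR adjusted p = 0.108). Ect2, the exchange factor that centralspindlin recruits (2.08 ± 0.46), and Prc1, which bundles the central spindle (1.46 ± 0.54, edgeR adjusted p = 0.0497), were called higher in PLD at 2 months. Kif20a, Kif4 and the scaffold anillin (Anln) were not called in either month. On the same strand as Kif23, 1363 bases away, lies the ribosomal protein gene Rplp1, with 730 ± 78.9 CPM in PLD and 485 ± 17.8 CPM in WT at 2 months (SD, n = 3). Rplp1 had a log2 fold change of 0.07 ± 0.17 at 1 month (not called) and 0.61 ± 0.18 at 2 months (edgeR adjusted p = 0.0185), and the genes share no exon bases (0).

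Both chromosome structure genes were above 0 in each month, and 1 was called higher at 2 months (50%, against 19.7% of all genes). Mki67, the proliferation marker Ki-67 that coats mitotic chromosomes, had 49.1, 50.0 and 33.3 CPM in PLD and 17.5, 12.6 and 29.6 CPM in WT at 1 month. It had 17.5, 10.2 and 26.8 CPM in PLD and 5.78, 12.2 and 4.44 CPM in WT at 2 months. The groups were apart at 1 month and overlapped at 2 months, where PLD replicate 2 lay below WT replicate 2. The log2 fold changes were 1.13 ± 0.44 at 1 month (edgeR adjusted p = 0.152) and 1.30 ± 0.46 at 2 months (edgeR adjusted p = 0.0417). Top2a, the topoisomerase that untangles sister chromatids, had 37.3, 38.2 and 26.3 CPM in PLD and 7.07, 6.47 and 24.2 CPM in WT at 1 month. It had 15.4, 6.71 and 25.9 CPM in PLD and 3.73, 8.57 and 0.980 CPM in WT at 2 months. WT replicate 3 came close to the PLD range at 1 month. Top2a was called in neither month, at 1.42 ± 0.71 (edgeR adjusted p = 0.25) and 1.87 ± 0.74 (edgeR adjusted p = 0.065).

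Single libraries moved how many of these genes passed, and how many of all genes did. At 1 month, omitting WT replicate 3 gave 19 higher, against 9.74% of all genes, and 1 lower, against 9.08%, in place of 3 and 0. Omitting PLD replicate 1 gave 0 higher (0.5% of all genes), as did PLD replicate 2 (0.475%) and also WT replicate 2 (0.796%). Omitting WT replicate 1 gave 1 (1.06%), against 3% of all genes with every library kept. At 2 months, omitting PLD replicate 1 gave 5 higher in place of 12, against 15.9% of all genes in place of 19.7%. PLD replicate 3 gave 4 (17.1%), WT replicate 1 gave 7 (15.4%) and WT replicate 3 gave 5 (17%). The count of 2 lower became 1 when PLD replicate 1 (13.1% of all genes lower), PLD replicate 3 (15.1%) or WT replicate 2 (14%) was omitted. Omission of a pair of libraries, the deviating WT replicate 3 of the earlier month together with WT replicate 1 of the later one, was chosen after seeing the data. It gave 17 higher (10% of all genes) and 1 lower (9.77%) at 1 month, and 13 higher (20.9%) and 2 lower (22.3%) at 2 months.

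**Figure D4:**
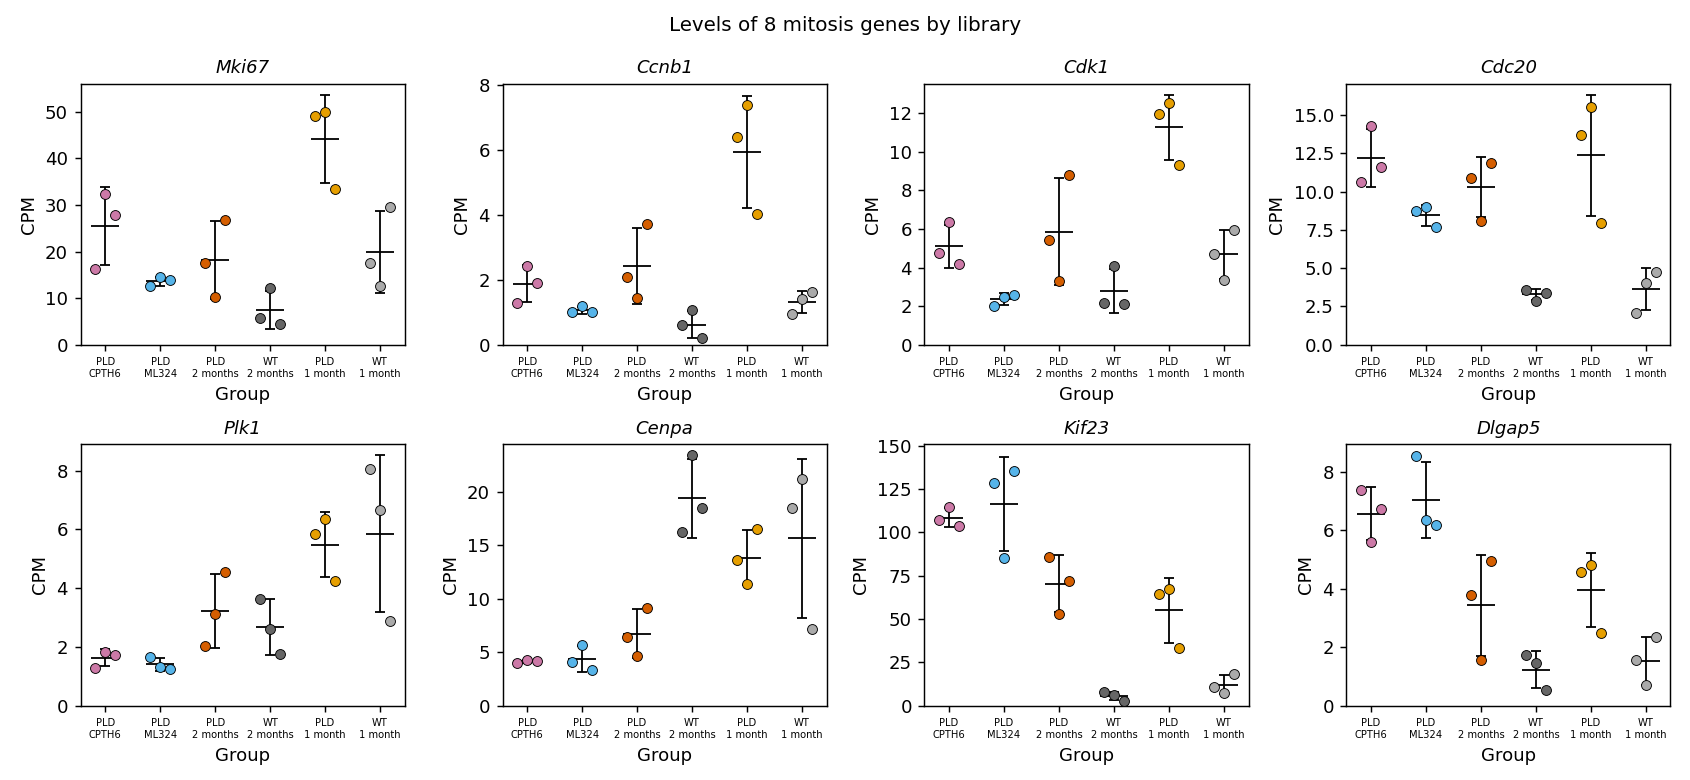
CPM of 8 mitosis genes in each of the 18 libraries, with 3 points per group and the mean with its SD. Mki67, Ccnb1, Cdk1 and Cdc20 show PLD above WT at 1 month, Cenpa has its highest mean in WT at 2 months, and Kif23 and Dlgap5 are highest in the treated groups. Plk1 and Dlgap5 were chosen for display after their values were seen.

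Between months, most of the 40 genes stood lower at 2 months in each genotype, with 1 called. In PLD the fold change of 2 months over 1 month was below 0 for all but 1 of the 40 genes, with a median of -0.84, against -0.01 over all genes. The exception was Kif23 at 0.38 ± 0.40. edgeR called 0 higher, against 4.38% of all genes, and 1 lower, against 5.23%, and 10 had an unadjusted p under 0.05, against 29.3% of all genes. DESeq2 called 0 higher, against 9.5% of all genes, and 5 lower, against 10.2%. Beside this, 12 of 15 endothelial markers were called lower, with a median of -1.92, and their part was not tested. The libraries did not overlap for 18 lower genes, against 24% of all genes. Anln, which links actin, myosin and septins in the cleavage furrow, had 6.28, 6.97 and 10.7 CPM at 2 months and 14.6, 17.2 and 16.1 CPM at 1 month. All 3 libraries at 2 months were lower, and Anln fell by 0.97 ± 0.28 (edgeR adjusted p = 0.0498). The call ended when any of the 6 libraries was left out (0 called each time). Mki67 (-1.25 ± 0.45), Ccnb1 (-1.26 ± 0.49), Top2a (-1.06 ± 0.70), Cdk1 (-0.92 ± 0.37) and Foxm1 (-0.17 ± 0.39) were not called. This comparison shares its PLD libraries with those of PLD against WT.

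In WT the median of 2 months over 1 month was -0.70, against -0.04 over all genes, and 4 of the 40 genes were above 0. edgeR called 0 higher, against 0.0113% of all genes, and 0 lower, against 0.0394%, while 7 had an unadjusted p under 0.05, against 15.1% of all genes, and DESeq2 called 1 lower, against 2.41%. Mki67 was at -1.42 ± 0.46, Top2a at -1.51 ± 0.73, Ccnb1 at -1.07 ± 0.53, Cdk1 at -0.76 ± 0.38 and Foxm1 at -0.54 ± 0.40. The libraries did not overlap for 4 lower genes, against 7.38% of all genes, and for 0 higher genes, against 9.35%. In the same comparison the median was -0.71 for the cholangiocyte markers and 1.31 for the endothelial markers, with 0 called in each list by edgeR. Their part was not tested.

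The difference of the PLD effect between months was tested directly as an interaction. By edgeR, 0 of the 40 genes were called higher, against 2.55% of all genes, and 0 lower, against 3.13%. The unadjusted p was under 0.05 for 3 genes, against 23.7% of all genes, and DESeq2 called 0, against 7.08% of all genes higher and 6.29% lower. The smallest p was that of Bub1b, a kinase-like checkpoint protein, with 11.2, 11.6 and 10 CPM in PLD and 6.13, 5.66 and 6.83 CPM in WT at 1 month. It had 5.88, 3.81 and 7.54 CPM in PLD and 4.76, 8.30 and 7.12 CPM in WT at 2 months. PLD was above WT at 1 month only, and the interaction was -1.0 ± 0.38 (edgeR adjusted p = 0.139). The interactions of Mki67 (0.17 ± 0.63), Top2a (0.45 ± 1.00), Cdk1 (-0.16 ± 0.54), Ccnb1 (-0.20 ± 0.74) and Foxm1 (0.37 ± 0.56) were within their standard errors. For Kif23 it was 1.54 ± 0.58 and for Cenpa -1.31 ± 0.52, the other two of the 3 genes, which were not called.

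Most of these genes had a fold change of CPTH6 over ML324 above 0, and no gene passed the test. Of the 40 genes, 39 passed the filter on low counts (Cdc25c did not), and 15989 genes were tested. edgeR called 0 of the 39 higher and 0 lower, against 0% of all genes in each direction, and 17 of the 39 had an unadjusted p under 0.05, against 12.6% of all genes. DESeq2 called 2 higher, against 1.02% of all genes, and 0 lower, against 0.813%. The fold change of CPTH6 over ML324 was above 0 for 33 of the 39, with a median of 0.54, against -0.02 over all genes. The libraries did not overlap for 19 of the 40 genes with CPTH6 above, against 12.3% of all genes tested, and for 1, Incenp, below, against 7.73%. Cdk1 had 4.76, 6.35 and 4.19 CPM after CPTH6 and 2.00, 2.50 and 2.60 CPM after ML324, a log2 difference of 1.06 ± 0.26 (edgeR adjusted p = 0.262). Mki67 had 16.3, 32.4 and 27.8 CPM after CPTH6 and 12.5, 14.5 and 13.9 CPM after ML324, a difference of 0.86 ± 0.23 (edgeR adjusted p = 0.272). In both genes every CPTH6 library was above every ML324 library. Top2a had 14.4, 27.9 and 22 CPM after CPTH6 and 10.8, 12.2 and 14.6 CPM after ML324 (0.73 ± 0.23), and Foxm1 had 6.30, 10.3 and 7.79 CPM after CPTH6 and 5.77, 6.54 and 4.72 CPM after ML324 (0.47 ± 0.24). The groups overlapped in both genes, and neither they nor Ccnb1 (0.77 ± 0.34) were called. Kif23 (-0.15 ± 0.17) and Dlgap5 (-0.14 ± 0.22), chosen here after their values were seen, stood within 1 standard error of 0. ML324 replicate 2 had the highest endothelial level of its group, with 948 CPM against 213 and 224 CPM, and its mean log2 CPM of the mitosis genes was 1.73, against 1.66 and 1.55 in the other ML324 libraries.

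Against untreated PLD at 2 months, few of these genes were called with either compound. These comparisons share the PLD libraries, and compound, month and library set cannot be told apart in them, since the treated titles give 3 months. After CPTH6, edgeR called 0 of 39 genes higher, against 9.39% of 16502 genes, and 0 lower, against 13.7%, while 7 had an unadjusted p under 0.05, against 36.4% of all genes, and DESeq2 called 3 higher, against 12.5%, and 1 lower, against 14.3%. The median log2 fold change was 0.02, against -0.04 over all genes, with 20 of 39 above 0. The libraries did not overlap for 5 genes above, against 17.7% of all genes, and for 2 below, against 24.4%. After ML324, 1 was called higher, against 7.96%, and 2 lower, against 11.4%. The median was -0.48, against -0.01 over all genes, with 5 of 39 above 0, and the median was -0.11 without PLD replicate 3. The libraries did not overlap for 1 gene above, against 14.5%, and for 6 below, against 23.1%.

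**Figure D5:**
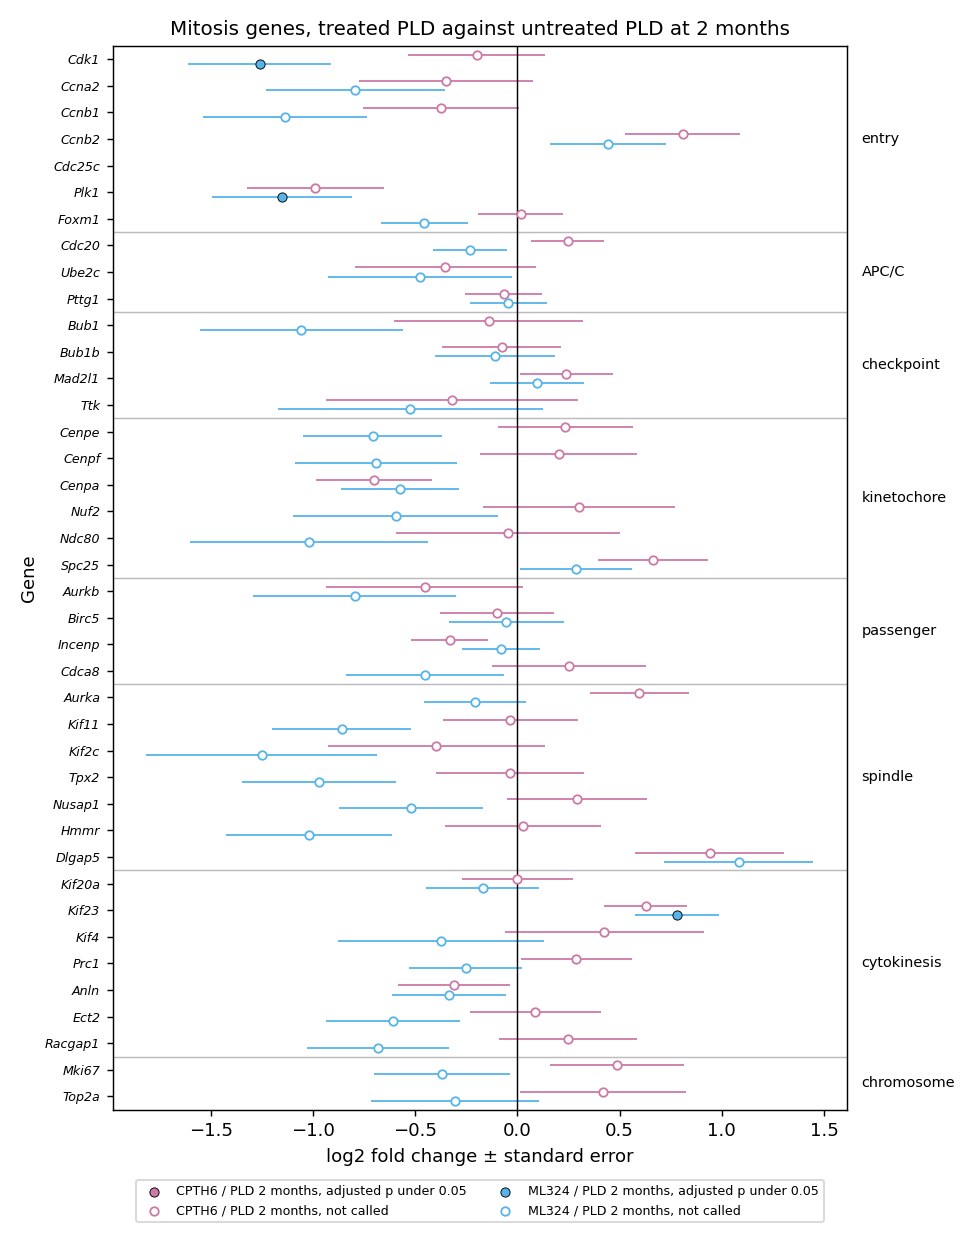
Log2 fold changes with standard errors of PLD treated with CPTH6 and with ML324 over untreated PLD at 2 months, for the mitosis genes by role. Cdc25c was not tested. Filled points passed an adjusted p of 0.05 by edgeR, which were Cdk1 at -1.26, Plk1 at -1.15 and Kif23 at 0.78, all for ML324.

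In ML324 libraries Cdk1 had 2.00, 2.50 and 2.60 CPM, against 5.41, 3.33 and 8.82 CPM in untreated PLD at 2 months. Every ML324 library was below, and Cdk1 fell by 1.26 ± 0.35 (edgeR adjusted p = 0.0335), whereas its change after CPTH6 was -0.20 ± 0.33. Plk1, the kinase that acts from mitotic entry to cytokinesis, was the other gene called lower, and its values are given for that reason. It had 1.66, 1.31 and 1.24 CPM after ML324, against 2.04, 3.11 and 4.56 CPM in untreated PLD, and fell by 1.15 ± 0.34 (edgeR adjusted p = 0.0431). After CPTH6, Plk1 had 1.29, 1.84 and 1.74 CPM, and its change of -0.99 ± 0.34 was not called (edgeR adjusted p = 0.0597). Plk1 was below the untreated libraries in both treated groups. Ccnb1 (-1.14 ± 0.40 after ML324 and -0.37 ± 0.38 after CPTH6), Mki67 (-0.37 ± 0.33 and 0.49 ± 0.33), Top2a (-0.31 ± 0.41 and 0.42 ± 0.41) and Foxm1 (-0.46 ± 0.21 and 0.02 ± 0.21) were not called with either compound.

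Kif23 was called in the other direction after ML324. It had 107, 114 and 104 CPM after CPTH6 and 129, 85.2 and 135 CPM after ML324, against 85.8, 53.1 and 72.0 CPM in untreated PLD at 2 months. CPTH6 libraries were all above the untreated ones, and ML324 replicate 2 was just below the highest untreated library. The log2 fold changes were 0.63 ± 0.20 after CPTH6 (edgeR adjusted p = 0.0526, not called) and 0.78 ± 0.21 after ML324 (edgeR adjusted p = 0.0277). Dlgap5, a spindle protein that stabilises microtubules near chromosomes and was chosen here after its values were seen, had 7.39, 5.60 and 6.72 CPM after CPTH6 and 8.54, 6.36 and 6.20 CPM after ML324, against 3.78, 1.56 and 4.95 CPM in untreated PLD. All treated libraries were higher, and the changes of 0.94 ± 0.36 and 1.08 ± 0.37 were not called (edgeR adjusted p = 0.0907 and 0.0657). The gene Lgals3 (galectin-3) lies 1619 bases from Dlgap5 on the opposite strand. Lgals3 had 1213 ± 192 CPM after CPTH6 and 1130 ± 153 CPM after ML324, against 474 ± 45.9 CPM in untreated PLD and 45.7 ± 16.2 CPM in WT at 2 months (SD, n = 3). Dlgap5 and Lgals3 share no exon bases (0), and the part of neighbouring reads in the Dlgap5 counts was not tested.

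Calls after ML324 rested on single libraries. The 2 lower calls (11.4% of all genes) became 7 without PLD replicate 2 (9.5%) and 1 without PLD replicate 1 (8.03%). They became 0 without PLD replicate 3 (7.67%), ML324 replicate 1 (7.38%), ML324 replicate 2 (11.3%) or ML324 replicate 3 (6.75%). The Kif23 call ended without PLD replicate 2, PLD replicate 3, ML324 replicate 1 or ML324 replicate 3 (0 higher, except without PLD replicate 3, when 1 other gene was called). Of all genes, 4.3% to 6.25% were called higher in those fits. After CPTH6 the counts of 0 became 1 higher (6.62% of all genes) and 1 lower (10.5%) without PLD replicate 1, and 2 lower (11.3%) without PLD replicate 2. Beside these values, 13.7% of all genes were called lower after CPTH6 and 11.4% after ML324. Fibroblast and stellate markers were called lower for 13 of 14 after CPTH6 and 12 of 14 after ML324. Endothelial markers were lower for 7 of 15 and 4 of 15, and macrophage markers lower for 7 of the 14 tested with each compound. Neutrophil markers were called higher for 7 of 10 after CPTH6 (9.39% of all genes) and 4 of 10 after ML324 (7.96%). Their part was not tested.

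Other genes of division were described by the same tests, to be read against the share called over all genes (3% higher and 2.02% lower at 1 month, 19.7% higher and 20.3% lower at 2 months). Unless a compound is named, rose and fell here mean higher and lower in PLD than in WT in the same month. Among 60 further mitosis genes, 2 were called higher (3.33%) and 0 lower in PLD at 1 month, with a median of 0.74, and 13 higher (21.7%) and 2 lower (3.33%) at 2 months, with a median of 0.73. Psrc1 (2.21 ± 0.36), Knstrn (1.68 ± 0.33) and Fam83d (1.18 ± 0.24), which encode spindle proteins, rose at 2 months. Citron kinase, Cit, which acts in cytokinesis, fell by 2.79 ± 0.23 at 2 months (edgeR adjusted p = 5.88e-05) and was the 1 gene of the list called in the interaction (-2.97 ± 0.31, edgeR adjusted p = 0.00768). Among 34 DNA replication genes, 0 were called at 1 month, with a median of 0.48 and 11 at an unadjusted p under 0.05, against 24.2% of all genes. At 2 months 13 rose (38.2%) and 1 fell (2.94%). The licensing factor gene Cdt1 rose by 1.82 ± 0.24 and Gins3, of the replicative helicase, fell by 1.24 ± 0.26. Of 17 core subunits and regulators of the anaphase-promoting complex, 3 rose (17.6%) and 6 fell (35.3%) at 2 months, and Cdc23 fell by 0.65 ± 0.14. Of 17 condensin and cohesin genes, 1 rose (5.88%) and 3 fell (17.6%) at 2 months. With CPTH6 over untreated PLD 5 rose (29.4%, against 9.39% of all genes) and with ML324 3 rose (17.6%, against 7.96%), such as Stag1 (0.40 ± 0.08 after CPTH6 and 0.36 ± 0.08 after ML324), a subunit of cohesin.

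Counts for genes of earlier phases and for inhibitors of cyclin-dependent kinases at 2 months stand beside 19.7% higher and 20.3% lower over all genes. Again, rose and fell mean higher and lower in PLD than in WT. Of 14 cyclins and kinases of earlier phases, 4 rose (28.6%) and 1 fell (7.14%) at 2 months, among them Pkmyt1, the inhibitory kinase of Cdk1 (1.61 ± 0.23), and Cdk6 (1.10 ± 0.20), a kinase of the G1 phase. Of 19 RB, E2F and MuvB factors, 5 rose (26.3%) and 3 fell (15.8%) at 2 months. Rb1, the retinoblastoma protein gene, fell by 1.02 ± 0.17. Of 8 inhibitor genes, 2 rose at 1 month (25%, against 3% of all genes), and 2 rose (25%) and 1 fell (12.5%) at 2 months. Cdkn2b, which encodes p15, had 14, 15.3 and 8.90 CPM in PLD and 2.85, 1.95 and 0.781 CPM in WT at 1 month. At 2 months Cdkn2b had 15.5, 17.4 and 17.9 CPM in PLD and 1.37, 1.73 and 2.06 CPM in WT. PLD libraries were above WT without overlap, with changes of 2.75 ± 0.38 and 3.32 ± 0.39 (edgeR adjusted p = 0.00604 and 0.000191). Cdkn2a, which encodes p16 and Arf, had 2.91, 2.68 and 4.07 CPM in PLD and 1.07, 0.710 and 0.464 CPM in WT at 2 months, a change of 2.11 ± 0.40 (edgeR adjusted p = 0.00238). Cdkn1c went the other way, with 8.20, 11.7 and 6.71 CPM in PLD and 15.6, 27.5 and 34.8 CPM in WT at 2 months, without overlap. The lowest log2 fold change of the 8 genes in that month was -1.53.

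For the inhibitor genes too, compound, month and library set cannot be told apart in treated against untreated PLD. With CPTH6, 1 of the 8 was called higher (12.5%, against 9.39% of all genes) and 1 lower (12.5%, against 13.7%). Cdkn1a, which encodes p21, had 889, 856 and 692 CPM with CPTH6 and 678, 569 and 761 CPM with ML324. It had 316, 369 and 266 CPM in untreated PLD at 2 months. All treated libraries were above the untreated ones, with changes of 1.36 ± 0.16 and 1.13 ± 0.16 (edgeR adjusted p = 0.00077 and 0.00212). Cdkn2a was lower, at 0.646, 0.979 and 0.870 CPM with CPTH6 and 1.05, 1.31 and 1.36 CPM with ML324, against 2.91, 2.68 and 4.07 CPM in untreated PLD. Its changes were -1.94 ± 0.30 and -1.33 ± 0.30 (edgeR adjusted p = 0.00222 and 0.0141). With CPTH6 over ML324, edgeR called 0 of the 8 inhibitor genes, against 0% of all genes in each direction. Of the 8, 2 had an unadjusted p under 0.05, against 12.6% of all genes.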

How the data were processed

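The values are counts of read pairs per gene that the authors deposited, 1 table per library, with a gene length in bases. Per the submitters' processing notes, the build was mm10 and the tools included STAR 2.7.4a, SAMtools 1.12, featureCounts 1.6.0 and DESeq2 1.26.0, with no role given. Per the file headers, featureCounts counted on GENCODE M25, without strand. Reads of a gene and its antisense partner therefore cannot be told apart, and 12 of the 40 genes share exon bases with another gene, 10 of them on the opposite strand (largest share: Kif20a with Cdc23, 29.3% of its exon bases). Symbols came from GENCODE M21, which named 55141 of 55401 genes.

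The test was that of edgeR 4.0.16, under R 4.3.3 (filterByExpr, TMM, quasi-likelihood F-test, Benjamini-Hochberg over all genes of a comparison, threshold 0.05). A model with group means covered the 12 untreated libraries (8 residual degrees of freedom), another the 6 treated libraries (4 degrees), and another the 9 treated and untreated PLD libraries at 3 and 2 months (6 degrees). Fold changes are log2, ± the standard error implied by F. CPM use TMM-scaled sizes, with a prior count of 2 before logs. The procedure was tested on simulated data.

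The 40 genes, the other lists and the markers were chosen with earlier results of these data known, so no test was made over a list. Genes with values in every library are, per comparison, the called gene of each role with the smallest adjusted p, or, with none called, the gene with the smallest p, and always Mki67, Top2a, Cdk1, Ccnb1 and Foxm1. Of each other list up to 4 called genes with the smallest adjusted p are named. Alternatives were DESeq2 1.42.0, RLE factors, no filter, a replicate block, all 18 libraries, only the 6 compared, and leaving out each library. No libraries of a group held the same counts. Motifs of proteins were planned and not analysed here.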

Additional observations from a re-analysis of the deposited data

How the results depend on the processing

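The counts of the 40 genes past the threshold moved more than the fold changes. DESeq2 in place of edgeR called 14 higher in PLD at 1 month, against 6.8% of all genes. It called 5 lower in PLD at 2 months over 1 month (10.2% of all genes) and 1 lower in WT over the same months (2.41%). With CPTH6 over ML324 it called 2 higher (1.02%). Over untreated PLD it called 3 higher (12.5%) and 1 lower (14.3%) with CPTH6, and 2 higher (10.6%) with ML324. Without a filter on low counts the counts were 23 higher at 1 month (2.13% of all genes), 21 higher at 2 months (6.57%), 11 lower in PLD over time (3.86%), 5 lower in WT over time (1.49%), 1 higher (2.42%) and 1 lower (2.63%) in the interaction, 1 higher with CPTH6 over ML324 (0.426%), 4 higher with CPTH6 (5.45%), and 2 higher (4.63%) and 4 lower (6.33%) with ML324. Without the filter 45191 genes were tested in the untreated libraries, in place of 17749. For CPTH6 over ML324 it was 30972 in place of 15989, and for treated over untreated PLD 37164 in place of 16502. Those shares include many genes with few counts and cannot be set against the shares with the filter. A fit of all 18 libraries gave 10 higher at 1 month (5.83% of all genes), 3 lower in PLD over time (7.61%), and 0 higher (4.52%) and 1 lower (10.6%) with ML324. A fit of only the 6 libraries compared gave 0 higher at 1 month (0.143% of all genes) and 4 lower in PLD over time (12.2%). It gave 2 higher with CPTH6 (10.5%), and 0 higher (6.7%) and 0 lower (8.16%) with ML324. RLE factors gave 1 higher with CPTH6 (10.7% of all genes). With a pair of WT libraries omitted (replicate 3 of the earlier month, replicate 1 of the later one), chosen after seeing the data, 17 were higher (10% of all genes) and 1 lower (9.77%) at 1 month. The interactions were then -0.03 for Foxm1, -0.39 for Mki67 and -0.56 for Top2a. The cause of these moves was not tested.

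Same-numbered replicates were not paired in the main test. Their correlations ran from -0.39 to 0.32 and were above 0.1 throughout in no comparison. Such correlations cannot decide whether same-numbered libraries shared a preparation. With the replicate block, 2 were higher at 1 month (1.94% of all genes, Ccnb1 was not called). At 2 months 6 were higher (18.2%), and Mki67, Cdk1, Ccna2, Kif11, Prc1 and Foxm1 were not called. The block gave 0 lower in PLD over time (2.99%), 1 higher with CPTH6 (8.84%), and 2 higher (7.3%) and 0 lower (10.9%) with ML324. Foxm1 with CPTH6 was at -0.00535.

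Leaving out each library in turn gave 0 to 19 higher (0.475% to 9.74% of all genes) and 0 to 1 lower (0.0594% to 9.08%) at 1 month. At 2 months it gave 4 to 18 higher (14.9% to 17.1%) and 1 to 2 lower (13.1% to 17.3%). In PLD over time 0 to 0 were lower (0.394% to 2.27%). With CPTH6, 0 to 1 were higher (5.55% to 8.24%) and 0 to 2 lower (8.46% to 11.3%). With ML324, 0 to 1 were higher (4.3% to 6.69%) and 0 to 7 lower (6.75% to 11.3%). Over the same omissions, Foxm1 in WT over time ran from -0.86 to 0.00758. The interaction ran from -0.61 to 0.44 for Ccnb1, -0.54 to 0.26 for Cdk1, -0.18 to 0.70 for Foxm1, -0.23 to 0.75 for Mki67 and -0.44 to 1.39 for Top2a. With CPTH6 over untreated PLD, Ccnb1 ran from -0.64 to 0.083, Cdk1 from -0.49 to 0.23 and Foxm1 from -0.15 to 0.17. With ML324, Mki67 ran from -0.66 to 0.025, Top2a from -0.68 to 0.23 and the median of the tested genes from -0.79 to -0.11.

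The median of the 40 genes (39 after the compounds) kept its sign under every alternative in PLD against WT, at 0.96 to 1.61 at 1 month and 0.75 to 1.5 at 2 months, and in CPTH6 over ML324, at 0.40 to 0.71. Low counts limit the scarcest genes: WT replicate 3 at 2 months had a median of 19.5 counts over the 40 genes and a minimum of 1. Groups of 3 libraries limit the rest.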
